A study of Homo sapiens with 6 samples.

Results

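TGF-beta and BMP signalling was examined through 43 genes: ligands, receptors, SMAD proteins, inhibitors, proteins that anchor latent TGF-beta, and ID target genes. They were listed by their place in the pathway and not by a cut on their values, but with earlier results of these data known. Of the 43 genes, 42 were named by at least 1 probe set of the array that names no other gene, and BMPR1A was not analysed here. A gene was read from its brightest such probe set by the mean of the 6 arrays. Probe sets ending in _x_at, which may cross-hybridise, were read only where no other could be used. Of the 42 genes, 34 passed the limit on dim probe sets and were tested, among 14269 genes tested in all, and 8 stayed below the limit.

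The samples were cultures of LNCaP, an established androgen-responsive cell line from a human prostate cancer metastasis, kept in phenol red-free RPMI with 10% charcoal- and dextran-stripped serum. After 3 days, 3 cultures received 100 nM dihydrotestosterone (DHT), a potent natural androgen, for 48 h, and 3 cultures were controls. The sources used here do not say what was added to the controls, and all 6 cultures were of this single line in steroid-stripped medium. The comparison asked how transcripts of steroid-deprived cells differ once androgen is returned.

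Ligands of the TGF-beta family bind pairs of type I and type II serine/threonine kinase receptors on the cell surface. The activated type I receptor phosphorylates receptor-regulated SMADs: SMAD2 and SMAD3 for TGF-beta and activin, SMAD1 and SMAD5 for BMPs. These join SMAD4 and act in the nucleus, where the ID genes are classic BMP targets. Inhibitors act at each step, and many of them are themselves induced by the pathway as feedback. In the normal prostate, TGF-beta is known as a brake on epithelial growth.

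Values are MAS5 signals on a linear scale, where the trimmed mean of every array was 100.03, and a culture gave 1 array. The labels describe biological replicates without saying whether cultures were grown on separate days, so p-values measure the spread between these cultures. The treatment label was borne out by KLK3, which encodes prostate-specific antigen, with signals of 1894 to 2398 in the controls and 8501 to 9365 with DHT, and by TMPRSS2, with 209 to 291 and 2071 to 2351. Of 7 luminal prostate markers listed, 5 had a probe set, and all 5 passed the limit on dim probe sets. The 3 basal markers with a probe set lay under the limit. Of these luminal markers, KLK3 rose and KRT8 was lower with DHT (-0.43 ± 0.08, limma adjusted p = 0.00569). KRT18 had 0.23 with every DHT array above the controls (limma adjusted p = 0.0528). FOLH1 had 0.33 and EPCAM -0.08, and neither they nor KRT18 were called. Of 6 stromal markers, COL1A1 was lower with DHT and no other was called. VIM lay above the controls in every DHT array (0.32, limma adjusted p = 0.0926), and COL3A1 below them (-0.25, limma adjusted p = 0.464). ACTA2, COL1A2 and DCN overlapped between the groups. The summed signal of the 6 stromal markers was 578 to 650 in the controls and 550 to 611 with DHT. The summed signal of 4 neuroendocrine markers, 2 of them bright enough to test and neither called, was 257 to 259 in the controls and 163 to 241 with DHT. Of the leukocyte markers with a probe set, PTPRC was too dim to test and CD3E, dim as well, was 29.3 to 38.0 in the controls and 9.95 to 22.2 with DHT (limma adjusted p = 0.063). The part of these markers in the differences given here was not tested. The 3'/5' signal ratio for ACTB, a sign of RNA integrity and labelling, was 1.37 ± 0.05 in the controls and 1.77 ± 0.07 with DHT, and that of GAPDH was 0.904 ± 0.044 and 1.06 ± 0.05 (SD, n = 3 each; exact two-sided permutation p = 0.1 for both, the smallest that 3 against 3 arrays allow). Whether this shift bears on the members was not tested.

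Among the 34 tested members, 8 were higher with DHT and 2 lower at a limma adjusted p of 0.05. Higher were the inhibitors PMEPA1, SMURF2 and BAMBI, the receptors BMPR1B, TGFBR3 and ACVR1B, and the ligands BMP7 and BMP6. Lower were LTBP1, which anchors latent TGF-beta in the matrix, and the target gene ID2. The share called was 29.4% of the tested members, beside 13.0% of all genes tested (6.97% higher and 5.99% lower). The list was made with earlier results of these data known. Differences are on the log2(signal + 16) scale, which understates the change of dim genes, and each is relative to the trimmed mean of its array. In these bulk cultures, fewer cells with a transcript and less of it per cell cannot be told apart. PMEPA1, BMPR1B and TGFBR3 passed whichever single array was left out, and each of the other 7 lost its call without at least 1 array.

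**Figure D1:**
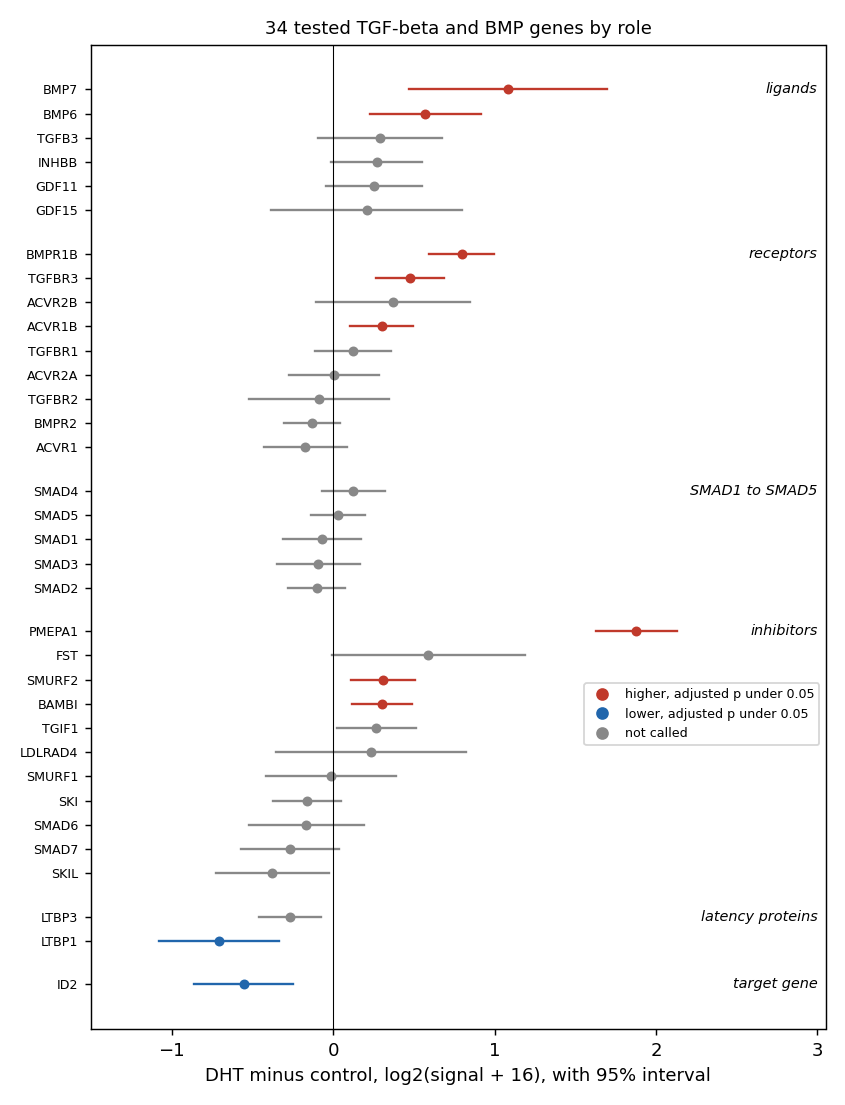
DHT minus control on the log2(signal + 16) scale (x axis) for the 34 tested genes, grouped by role, with limma's 95% interval as a line and 3 arrays per group. PMEPA1 lies at 1.88, apart from the other members, and the intervals of SMAD1 to SMAD5 all include 0.

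PMEPA1, a membrane protein that binds SMAD2 and SMAD3 and restrains TGF-beta signalling, had the largest difference of the members. Its signal was 182, 158 and 142 in the controls and 735, 598 and 573 with DHT. Every DHT array was at least 3 times the highest control array. The signal rose 3.95-fold, with a log2 difference of 1.88 ± 0.12 (SE; limma adjusted p = 3.46e-06), which placed it as number 7 of 14269 genes by size of rise. Its other 2 probe sets rose as well, by 1.19 ± 0.09 and 1.10 ± 0.14, and both passed over all probe sets (limma adjusted p = 2.37e-05 and 0.00062).

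The bases just before the annotated start of PMEPA1 are shown beside those of BMPR1B, the receptor with the largest difference, and of LTBP1, the member with the largest fall. They come from RefSeq promoter windows on build GRCh38.p14, which were found for 39 of the 43 genes and for 9 of the 10 called ones (BMP7 is not in that table). Each sequence holds the 250 bases before the gene's first start, read 5′ to 3′ on the gene's strand. Capitals mark the motifs searched on both strands: AGAACA, a core hexamer of androgen receptor binding sites, which reads TGTTCT on the opposite strand; CAGAC, the core of SMAD binding elements, which reads GTCTG there; and GGCGCC, a GC-rich SMAD element that is its own reverse complement. None of the 3 motifs is contained in another.
PMEPA1, chr20:57711473-57711722, minus strand: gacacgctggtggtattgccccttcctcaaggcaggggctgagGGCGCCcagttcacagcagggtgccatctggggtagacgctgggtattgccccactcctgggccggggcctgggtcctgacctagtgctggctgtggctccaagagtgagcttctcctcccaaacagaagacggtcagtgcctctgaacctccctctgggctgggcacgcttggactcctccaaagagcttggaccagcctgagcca
BMPR1B, chr4:94757705-94757954, plus strand: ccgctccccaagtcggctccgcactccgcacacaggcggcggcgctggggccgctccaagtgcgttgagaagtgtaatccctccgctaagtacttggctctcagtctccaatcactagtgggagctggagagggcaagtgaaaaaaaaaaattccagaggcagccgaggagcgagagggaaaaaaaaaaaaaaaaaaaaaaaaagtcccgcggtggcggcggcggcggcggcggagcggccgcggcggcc
LTBP1, chr2:32946703-32946952, plus strand: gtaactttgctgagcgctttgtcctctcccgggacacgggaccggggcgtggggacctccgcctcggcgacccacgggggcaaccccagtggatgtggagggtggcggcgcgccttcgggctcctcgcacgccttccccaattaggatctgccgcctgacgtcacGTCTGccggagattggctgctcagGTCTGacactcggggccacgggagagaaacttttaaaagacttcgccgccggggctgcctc
The PMEPA1 window holds 1 GGCGCC, the LTBP1 window 2 copies of GTCTG, and the BMPR1B window none of the 3 motifs. The window of another BMPR1B start holds 2 CAGAC matches over both strands, and those of other LTBP1 starts hold 1 each. AGAACA also lies 194 bases before a start of ACVR1B. The table gives 4 starts of PMEPA1, and the AGAACA hexamer lies 229 bases before another of them. It is shown with 30 bases of context.
PMEPA1, chr20:57710789-57710818, minus strand: acctgaagaatgTGTTCTtgtagcactcct
Over 35116 such windows of all genes, 12.4% hold AGAACA, 38% hold CAGAC and 16.4% hold GGCGCC. Of the 17 windows of the called members, 2 hold AGAACA, 8 hold CAGAC and 3 hold GGCGCC. A match is a description of the letters and not evidence of binding.

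Of 11 ligands, 6 were tested, and all 6 had positive differences, between 0.21 and 1.08 with a median of 0.28, beside a median of 0.02 over all genes tested. BMP7 and BMP6 rose, the remaining 4 did not pass, and 5 were below the limit. The common sign did not hold under every alternative: GDF11 had -0.15 when the probe sets of a gene were averaged, and GDF15 -0.07 without control replicate 1. With arrays scaled to the hybridisation spikes the ligand median was -0.25, only BMP6 and BMP7 stayed positive, and the median of all genes was -0.51.

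BMP7, a bone morphogenetic protein that signals through ACVR1 and BMPR1 receptors, had signals of 6.12, 35.6 and 25.9 in the controls and 67.9, 57.9 and 57.2 with DHT. The groups did not overlap, and the controls varied more than the DHT arrays. The log2 difference was 1.08 ± 0.28 (limma adjusted p = 0.0264). Its other 3 probe sets were too dim to test. BMP6, a related BMP that also governs hepcidin in the liver, had signals of 38.7, 44.8 and 39.4 in the controls and 75.6, 60.6 and 70.2 with DHT. Its signal rose 1.68-fold, with a log2 difference of 0.57 ± 0.16 (limma adjusted p = 0.0351). BMP7 lost its call without any 1 of the DHT arrays (adjusted p = 0.0642 to 0.089), and BMP6 without any 1 array other than control replicate 2 (adjusted p = 0.0517 to 0.113). BMP6 also lost it with the replicate number as a block (adjusted p = 0.0644), and BMP7 with a pseudocount of 1 (0.0553) and with no intensity trend (0.0896). With no filter on dim probe sets both lost it (BMP6 0.0685, BMP7 0.0706), and with spike scaling too (log2 differences of 0.04 and 0.55).

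GDF11, a ligand of activin receptors, was 62.0, 64.8 and 63.1 in the controls and 83.6, 80.6 and 71.6 with DHT. INHBB, which encodes the beta B subunit of activins and inhibins, was 83.2, 105 and 84.4 in the controls and 110, 106 and 121 with DHT. In both genes the DHT arrays lay above all controls without the difference passing (0.25, limma adjusted p = 0.274, and 0.27, limma adjusted p = 0.217). The other 3 tested probe sets of GDF11 had differences of the opposite sign, at -0.18, -0.35 and -0.33, with overlapping groups. TGFB3 overlapped between the groups (51.6 to 61.4 and 57.7 to 95.8), with a log2 difference of 0.29 and a 95% interval of -0.09 to 0.67.

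GDF15, a divergent family member that signals through a receptor of its own in the brain stem, depended on its probe set. The rule reads it from a dim probe set (8.55 to 31.6 in the controls, 21.0 to 28.9 with DHT), where the difference was 0.21 ± 0.27 (limma adjusted p = 0.684). A second probe set, of the type that may cross-hybridise, was far brighter, with 2326, 2131 and 1911 in the controls and 2564, 3120 and 2524 with DHT. It rose by 0.36 ± 0.10 (limma adjusted p = 0.0397 over probe sets), and GDF15 passed when any kind of probe set could be read (adjusted p = 0.0344).

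TGFB1 and TGFB2, the classic TGF-beta isoforms, BMP2, BMP4 and INHBA, which encodes the beta A subunit of activin, were dim in all arrays. TGFB1 had signals of 3.69 to 6.92 over the 6 arrays and BMP4 2.80 to 4.56. Signals this low are not reliable in MAS5, and no difference is read from them.

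Of 10 receptors, 9 were tested. BMPR1B, TGFBR3 and ACVR1B rose, none fell, and 6 did not pass. The median difference was 0.13, between 0.08 (without DHT replicate 2) and 0.21 (without control replicate 3) when 1 array was left out, -0.06 when the probe sets of a gene were averaged and -0.40 with spike scaling.

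BMPR1B, a type I receptor for BMPs, had signals of 232, 195 and 205 in the controls and 384, 363 and 383 with DHT. The groups were far apart for their spread. The signal rose 1.79-fold, with a log2 difference of 0.80 ± 0.09 (limma adjusted p = 0.000301), or 0.27 with spike scaling (adjusted p = 0.132). A second probe set rose by 0.65 ± 0.12 and the third had 0.63 ± 0.27 (limma adjusted p = 0.00631 and 0.185 among all probe sets). TGFBR3, also called betaglycan, a co-receptor that presents TGF-beta2 and binds inhibin, had signals of 165, 159 and 148 in the controls and 231, 214 and 231 with DHT. Its signal rose 1.43-fold, with a log2 difference of 0.48 ± 0.10 (limma adjusted p = 0.00768), or -0.05 with spike scaling. Its other probe set rose by 0.44 ± 0.11 (limma adjusted p = 0.0248 over probe sets).

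ACVR1B, the type I receptor for activins, had signals of 344, 296 and 338 in the controls and 404, 385 and 427 with DHT. The difference of 0.30 ± 0.09 passed narrowly (limma adjusted p = 0.0458). It did not pass without any 1 of the 6 arrays (adjusted p = 0.0566 to 0.153). Another ACVR1B probe set had -0.48 with every DHT array below the controls (limma adjusted p = 0.225 over probe sets). The remaining tested ones had -0.11, -0.05 and 0.17 with overlapping groups. The mean of its 5 tested probe sets was -0.03 (adjusted p = 0.907), and with spike scaling ACVR1B had -0.23. ACVR1B kept its call under 7 of the 18 alternative settings.

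The receptors of TGF-beta itself did not pass. TGFBR1, the type I receptor, was 173 to 213 in the controls and 194 to 219 with DHT (0.13, 95% interval -0.11 to 0.36). TGFBR2, the type II receptor, was dim, with 29.9 to 42.9 and 27.4 to 41.0 (-0.09, interval -0.52 to 0.34). ACVR2A was level at 0.01 (interval -0.27 to 0.29), ACVR1 had -0.17 (interval -0.43 to 0.08) and ACVR2B 0.37 (interval -0.11 to 0.85). BMPR2, the type II receptor for BMPs, was 387, 369 and 382 in the controls and 344, 360 and 331 with DHT. All 3 DHT arrays lay below the controls, but the difference of -0.13 did not pass (limma adjusted p = 0.329). Of its other 4 tested probe sets, 2 fell, at -0.39 ± 0.10 and -0.51 ± 0.11 (limma adjusted p = 0.0304 and 0.013 among all probe sets), and 2 did not pass.

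**Figure D2:**
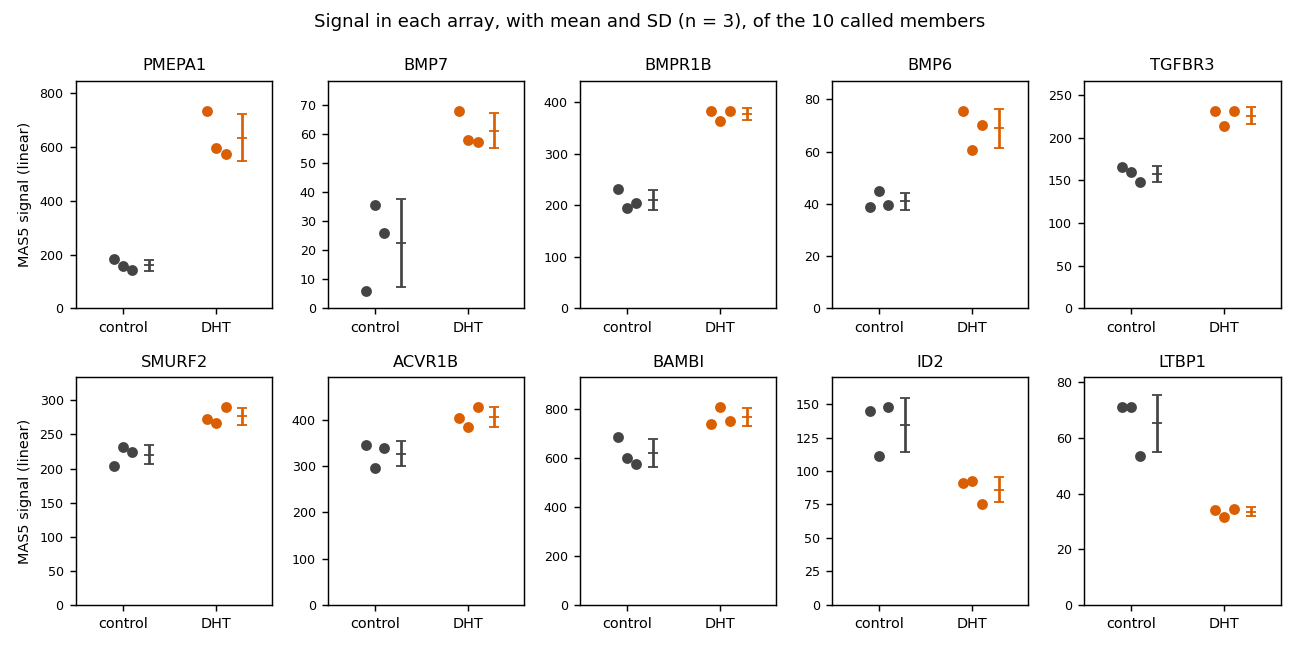
MAS5 signal on a linear axis in each array (points; 3 control, 3 DHT), with the group mean and SD beside them, for the 10 genes called. In each panel the groups do not overlap; PMEPA1 goes from 161 to 635 and BMPR1B from 211 to 377 on average.

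None of SMAD1 to SMAD5 passed in the probe set read for the gene. At an unadjusted p under 0.05 in limma the count was also 0, beside 13.8% of all genes tested higher and 12.2% lower, and the groups overlapped in all 5. SMAD2 was 421, 393 and 410 in the controls and 407, 368 and 363 with DHT, a difference of -0.10 with a 95% interval of -0.28 to 0.08. SMAD3 was 104, 99.8 and 108 in the controls and 101, 97.0 and 91.2 with DHT (-0.09, interval -0.35 to 0.17). SMAD4, the shared partner, was 309, 314 and 357 and then 365, 371 and 337 (0.13, interval -0.07 to 0.32). Dimmer probe sets of SMAD2 gave wider values in both directions without passing: 0.53 (interval 0.12 to 0.94) with DHT above all controls, and -0.32 (interval -0.56 to -0.08) with DHT below them. One of SMAD3 had -0.49 (interval -1.17 to 0.19). SMAD1 had -0.07 (interval -0.31 to 0.17), with another probe set at 0.26 (interval 0.03 to 0.48) that lay above all controls without passing, and SMAD5 0.03 (interval -0.14 to 0.20). The SMAD median was -0.07, and 0.06 when probe sets of a gene were averaged. A dimmer SMAD5 probe set rose by 0.56 ± 0.13 (limma adjusted p = 0.022 over probe sets) while the remaining 4 did not pass. These had 0.46 (interval 0.09 to 0.83), 0.03, -0.03 and -0.11, with overlapping groups. With spike scaling all 5 passed as lower, between -0.40 and -0.63.

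Of 12 inhibitors, 11 were tested. PMEPA1, SMURF2 and BAMBI rose, none fell and 8 did not pass. The median difference was 0.24, with 0.07 without control replicate 3, and 0.11 without control replicate 1 or without DHT replicate 3. It was 0.10 with a pseudocount of 64, 0.12 with probe sets averaged, and -0.01 when the lowest 60% of probe sets were left out, which removed LDLRAD4 and FST.

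SMURF2, a ubiquitin ligase that with SMAD7 targets type I receptors for degradation, had signals of 204, 231 and 225 in the controls and 273, 266 and 290 with DHT. The difference was 0.31 ± 0.09 (limma adjusted p = 0.0446). Of its other 3 probe sets, 2 lay higher in every DHT array without passing (0.39 and 0.43), and 1 had -0.04. BAMBI, a decoy receptor that lacks a kinase domain, had signals of 685, 601 and 574 in the controls and 738, 808 and 753 with DHT. The difference was 0.30 ± 0.08 (limma adjusted p = 0.0373). SMURF2 did not pass without any 1 of the 6 arrays (adjusted p = 0.0682 to 0.136) or with the replicate block (0.0639), BAMBI not without any array other than control replicate 1 (0.0621 to 0.133). With spike scaling SMURF2 had -0.22 and BAMBI -0.23. Of the 18 alternatives, SMURF2 kept its call under 6 and BAMBI under 9.

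The feedback inhibitors SMAD6 and SMAD7, which block receptor-regulated SMADs, did not pass. SMAD7 was 116, 90.8 and 123 in the controls and 90.9, 92.9 and 80.7 with DHT (-0.27, 95% interval -0.57 to 0.04). SMAD6 was 50.5 to 62.5 and 41.9 to 53.5 (-0.16, interval -0.52 to 0.19). The nuclear corepressor SKIL had -0.38 in the probe set read (limma adjusted p = 0.162). Its other tested probe sets had 0.41, with every DHT array above the controls, and -0.005, and neither passed. With its probe sets averaged SKIL had 0.0091. SKI, a relative of SKIL, had -0.16 in the probe set read and -0.62 ± 0.14 in a dimmer one that fell (limma adjusted p = 0.0193 over probe sets). SKI passed as lower when probe sets were averaged. The corepressor TGIF1 had 0.27 ± 0.11 (limma adjusted p = 0.151), with a dimmer probe set that rose by 0.64 ± 0.18 (0.0433 over probe sets), and passed when probe sets were averaged (0.45, adjusted p = 0.0148).

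LDLRAD4, the closest relative of PMEPA1, was dim and overlapped between the groups, at 17.6 to 47.6 in the controls and 26.9 to 43.4 with DHT (0.24 ± 0.27; limma adjusted p = 0.636). SMURF1, the relative of SMURF2, had -0.01 (interval -0.42 to 0.39). FST, follistatin, which traps activins, was 11.0, 45.0 and 35.2 in the controls and 54.2, 46.6 and 49.3 with DHT. Its groups did not overlap, but the spread of the controls was wide and the difference of 0.59 did not pass (limma adjusted p = 0.199). Another tested FST probe set had -0.16 (interval -0.78 to 0.47) with overlapping groups. NOG, noggin, a BMP antagonist, was at 0.666 to 6.15 over the 6 arrays, below the limit.

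LTBP1 and LTBP3, which anchor latent TGF-beta in the matrix, had lower signals in all 3 DHT arrays, and LTBP1 passed. LTBP1 had signals of 71.1, 71.1 and 53.5 in the controls and 34.2, 31.6 and 34.6 with DHT. The control signal was 1.95-fold that with DHT, a log2 difference of -0.71 ± 0.17 (limma adjusted p = 0.0185), the largest fall of the tested members. It lost its call without control replicate 1, control replicate 2 or DHT replicate 2 (adjusted p = 0.054 to 0.0724). LTBP3 had signals of 774, 701 and 704 in the controls and 576, 672 and 557 with DHT. Its difference of -0.27 ± 0.09 missed the threshold (limma adjusted p = 0.0695) and passed without DHT replicate 2 (-0.35, adjusted p = 0.0375). Of their relatives among the further pathway genes, LTBP2 (54.6 to 82.0 in the controls, 45.2 to 66.3 with DHT) and LTBP4 (31.0 to 55.5 and 13.2 to 44.1) overlapped between the groups and did not pass (limma adjusted p = 0.356 and 0.375).

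Of the 3 ID genes, which encode helix-loop-helix proteins that block differentiation factors, only ID2 was bright enough to test. ID2 had signals of 145, 111 and 148 in the controls and 90.8, 92.5 and 75.2 with DHT. The log2 difference was -0.55 ± 0.14 (limma adjusted p = 0.0231). ID2 kept its call under 13 of the 18 alternatives. It lost its call without control replicate 1, control replicate 3 or DHT replicate 3 (adjusted p = 0.0796 to 0.0944), and the mean of its probe sets had -0.29 (adjusted p = 0.246), since a probe set prone to cross-hybridisation had -0.02. ID1 and ID3, the most direct BMP targets, were at 10.4 to 23.6 and 4.98 to 14.6 over the 6 arrays, below the limit, and the groups overlapped.

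**Figure D3:**
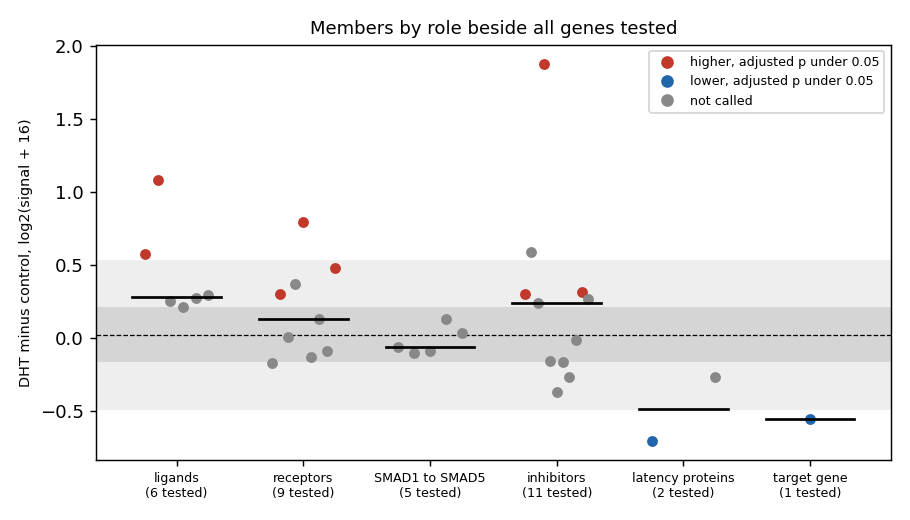
DHT minus control on the log2(signal + 16) scale (y axis) for tested members by role, with a bar at each role's median, beside the central 50% (dark band), the central 90% (light band) and the median (dashed line) of all 14269 genes tested. All 6 ligands lie above the dashed line at 0.02 and the 5 SMADs lie within the dark band.

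Set side by side, the groups of the pathway were small. Over all genes tested, 13.0% passed (6.97% higher and 5.99% lower). In the ligands 2 of 6, in the receptors 3 of 9 and in the inhibitors 3 of 11 rose and none fell. Of the 5 SMADs 0 passed, which at that share does not set them apart. The 2 members that fell were LTBP1 and ID2. Differences between these groups were not tested. The control and DHT arrays did not overlap for 15 of the 34 tested members (11 higher and 4 lower with DHT), beside 31.0% of all genes tested (16.9% higher and 14.1% lower). The median difference of the tested members was 0.13, and 24 of them did not pass.

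**Figure D4:**
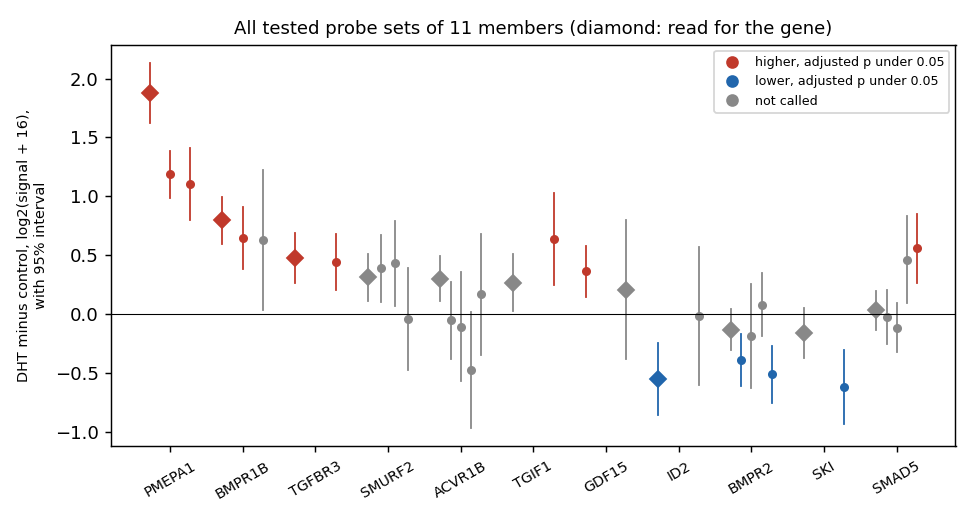
DHT minus control on the log2(signal + 16) scale (y axis), with 95% intervals, for all tested probe sets of 11 genes chosen after their values were seen; diamonds mark the probe set read for the gene, and colours show calls adjusted over probe sets. The 3 PMEPA1 probe sets lie between 1.10 and 1.88, whereas the 5 ACVR1B probe sets lie on both sides of 0.

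The probe sets of a gene can read different transcript forms. The 34 tested members had 85 tested probe sets, of which 13 were higher and 5 lower at a limma adjusted p of 0.05 over all probe sets, beside 10.3% of all 32768 probe sets called. No member had probe sets called in opposite directions. PMEPA1, BMPR1B and TGFBR3 were the members with at least 2 probe sets called higher, and BMPR2 was the member with 2 called lower. ACVR1B and SMURF2, which passed narrowly over genes, had no probe set called over all probe sets (limma adjusted p = 0.053 and 0.0516 for the ones read).

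Beyond the members, 86 further genes of the pathway were listed, of which 59 were tested, 18 were too dim and 9 were not analysed here. Of the 59, 4 rose and 2 fell, a share of 10.2% beside 13.0% of all genes tested. FSTL1, a secreted follistatin-like glycoprotein, had signals of 251, 252 and 200 in the controls and 608, 460 and 575 with DHT. It rose 2.33-fold, with a log2 difference of 1.17 ± 0.12 (limma adjusted p = 0.000138), or 0.64 with spike scaling. The ubiquitin ligases NEDD4L, which acts on activated SMAD2 and SMAD3, and WWP1 rose by 0.60 ± 0.08 and 0.48 ± 0.07 (limma adjusted p = 0.000691 and 0.00147). ITGAV, the integrin alpha V subunit that helps release active TGF-beta, rose by 0.52 ± 0.07 (limma adjusted p = 0.000791). With spike scaling NEDD4L had 0.07, WWP1 -0.05 and ITGAV 0.00.

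The genes that fell were EP300, an acetyltransferase that SMADs recruit, and COL1A1, a collagen gene induced by TGF-beta. EP300 had signals of 218, 203 and 220 in the controls and 153, 163 and 144 with DHT (-0.44 ± 0.10; limma adjusted p = 0.0129). COL1A1 had signals of 223, 178 and 193 in the controls and 129, 112 and 154 with DHT (-0.54 ± 0.13; limma adjusted p = 0.0184). COL1A1 lost its call without control replicate 1, control replicate 3, DHT replicate 1 or DHT replicate 2 (adjusted p = 0.0518 to 0.07). EP300 lost its call without control replicate 3 (0.0514). Of the 18 alternatives, COL1A1 kept its call under 12 and EP300 under 16. None of the 13 tested further ligands passed with limma; at an unadjusted p under 0.05 it gave 2 of them as higher and 0 as lower, beside 13.8% and 12.2% of all genes tested.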

How the data were processed

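The deposited table holds MAS5 signal intensities of 1-colour Affymetrix arrays, per the submitters' processing notes; the MAS5 version and any detection calls are not given in the sources used here. Each deposited array had the same trimmed mean of signal (2% left out at both ends). Of 54675 probe sets, 62 array controls were left out, 41091 name 1 gene in the platform annotation, with symbols looked up in a GRCh38.p14 gene table, and 0 columns were unused. Dim probe sets, the 40% with the lowest average log2(signal + 16), were dropped; this limit lay at a signal of 17.3 and left 32768 probe sets.

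DHT and control (3 arrays each, grouped by title) were compared on log2(signal + 16) with limma 3.58.1 in R 4.3.3 (lmFit and eBayes with an intensity trend, 4 residual degrees of freedom), fitted on all kept probe sets. A gene was read from its brightest kept probe set by mean signal, one ending in _x_at only if no other was kept, and p-values were Benjamini-Hochberg adjusted over 14269 genes. The 3 arrays per group limit the precision; the median standard error was 0.14. The fit was tested on simulated data. Motifs were searched with Python 3.11.15.

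The members, lists, roles and tests were chosen with earlier results of these data known. Every tested member is given; of the 86 further pathway genes, up to 4 that passed in each direction are named, by adjusted p. Array replicate numbers were not taken to pair the samples. There were 18 alternatives.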

Additional observations from a re-analysis of the deposited data

How the results depend on the processing

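PMEPA1 kept its call under all 18 alternatives, with log2 differences of 1.35 to 1.97 and limma adjusted p between 1.52e-06 and 0.00345, and BMPR1B and TGFBR3 kept theirs under all but spike scaling. Main counts were 8 members higher and 2 lower, and 994 genes higher and 855 lower. Leaving out 1 array gave 3 to 5 members higher, 0 to 2 lower, 631 to 778 genes higher and 523 to 664 lower, with fewer arrays in each fit. The count of members higher was 4 with no filter on dim probe sets, 5 with equal array medians and 4 without the intensity trend. Without that trend 1 member was lower, 388 genes were higher and 293 lower, and 0 further pathway genes were lower (leaving out arrays, 0 to 3); equal medians gave 649 genes higher, and 44.7% of calls as higher against 53.8%.

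Scaling the arrays to the hybridisation spikes lowers every difference by the same amount and moves the median of all genes to -0.51. It gave 112 genes higher and 8687 lower (1.27% of calls higher), 1 member higher and 18 lower, and 1 further pathway gene higher and 33 lower. The medians became -0.25 for ligands, -0.40 for receptors, -0.60 for SMADs and -0.29 for inhibitors. Signs turned for TGFB3 (-0.24), GDF11 (-0.27), GDF15 (-0.32), INHBB (-0.26), ACVR2B (-0.16), LDLRAD4 (-0.29), TGIF1 (-0.26), TGFBR1 (-0.40), TGFBR3 (-0.049), ACVR1B (-0.23), ACVR2A (-0.52), SMAD4 (-0.40), SMAD5 (-0.50), SMURF2 (-0.22), BAMBI (-0.23), ITGAV (-0.0042) and WWP1 (-0.046). Averaging the probe sets of a gene that passed the limit on dim ones turned ACVR1B (-0.033). Among members not called, it turned GDF11 (-0.15), TGFBR1 (-0.056), ACVR2A (-0.055), SMAD1 (0.099) and SKIL (0.0091). The cause was not tested.

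The ligand median was 0.39 with a pseudocount of 1, 0.19 with 64, 0.21 with no filter, and 0.27 to 0.37 leaving out 1 array. Averaged probe sets gave -0.055 for receptors and 0.060 for SMADs, and the 60% limit -0.013 for inhibitors. Leaving out 1 array, the median was -0.094 to 0.025 for SMADs, 0.081 to 0.21 for receptors and 0.070 to 0.23 for inhibitors.

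With the replicate number as a block 6 members were higher and 2 lower. The deviations of same-numbered arrays from their group means correlated at -0.014, -0.030 and -0.00092 across probe sets, so the numbers are not taken to pair the samples.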
